A study of Homo sapiens with 6 samples.

Results

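Chromosome 5 of HCC1954 cells, a breast cancer line, was examined outside chr5:1-6000000 and chr5:107000001-122000000 (hg19). All pairs of 40-kb bins with both bins on this chromosome and outside those windows were taken. This gave 3998 of the 4523 bins of chromosome 5, against 75918 bins in the whole maps (chromosomes 1 to 22 and X). Chromatin contacts were measured by in situ Hi-C with MboI in cultures of 4 established cancer cell lines, with no treatment in the labels: HCC1954 from breast, SNU-C1 and SW480 from colon or rectum and OE33 from an esophageal adenocarcinoma. There was a single map for HCC1954, for SNU-C1 and for OE33. For SW480 there were separate maps of replicate 1 and of replicate 2, and a further map without a number, which was treated as their pool. None of the lines is a normal control, so each comparison is between cancer lines. Because HCC1954 has 1 map and the members were defined by values of that map, all values below are descriptions without a test, and the difference between the SW480 replicates is the only measure of replicate error.

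Hi-C joins DNA ends that lie near each other in the nucleus, so the number of read pairs between 2 positions falls steeply with their distance along the chromosome. In cancer genomes, rearrangements can place distant pieces side by side, and such pieces then share read pairs as neighbours do. Domains called TADs are stretches that contact themselves more than their surroundings, and their boundaries often hold sites of the protein CTCF. At a larger scale, gene-rich and active chromatin (compartment A) and gene-poor and inactive chromatin (compartment B) contact their own kind. Extra copies of a stretch also raise its number of read pairs, so coverage in a Hi-C map follows copy number along with other properties of the DNA.

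Contacts are given as observed over expected (O/E), the corrected contact frequency over its mean at that distance across the whole map. They were summed in 200-kb blocks, of which 761 were usable, 196 on the short arm and 565 on the long arm. A block pair at least 2 Mb apart was called specific to a line where it had at least 10 recovered read pairs, an O/E of at least 4, and, with 0.5 added to all O/E values, a ratio of at least 4 to whichever other line came highest. Pairs among the members had 5006335 recovered read pairs in HCC1954, 6346157 in SNU-C1, 4892103 in OE33 and 7385872 in SW480 (3658752 in replicate 1 and 3726416 in replicate 2). Intervals on read pairs are exact 95% Poisson intervals and cover counting error only.

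The specific contacts of HCC1954 with the most read pairs met at 7 places, named A to G in order along the chromosome. Place A was chr5:32400001-32600000 on the short arm. The other places lay on the long arm, place B at chr5:51000001-51200000, place C at chr5:63000001-63200000, place D at chr5:103400001-103600000, place E at chr5:175200001-175400000, place F at chr5:176400001-176600000 and place G at chr5:180600001-180800000. These are positions in hg19 and blocks of 200 kb, and the exact bases that are joined, if any, cannot be read from bins of 40 kb. The 40-kb bin with the most read pairs lay just outside A in its contact with D. It also lay just outside C in the contacts with E and G, and just outside F in the contact with C. Whether the DNA of any of these places is joined was not tested. Place A overlaps *ZFR* (an RNA-binding zinc finger protein) and *SUB1* (a transcriptional coactivator). Place E overlaps *CPLX2* (complexin, which regulates synaptic vesicle release) and *THOC3* (a subunit of the complex that couples transcription to mRNA export). Place F overlaps *UIMC1* (a partner of BRCA1 at DNA breaks), *ZNF346* (which binds double-stranded RNA), *FGFR4* (a fibroblast growth factor receptor kinase) and *NSD1* (a histone H3 methyltransferase). Place G overlaps *TRIM7*, *TRIM41* and *TRIM52* (proteins of the TRIM family), *RACK1* (a scaffold on the ribosome) and *OR4F3*, an olfactory receptor with near-identical copies elsewhere, on which reads cannot be placed with certainty. Places B, C and D overlap no protein-coding gene of the GENCODE annotation.

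The DNA of the 7 places differed in composition. GC content was 43.1% at A, 35.1% at B, 36.4% at C, 35.0% at D, 47.5% at E, 47.6% at F and 46.5% at G, against a median of 38.7% over the 761 usable blocks. Sites of MboI (GATC), at which the maps can capture a contact, numbered from 392 at D to 693 at F, within the range of 301 to 735 over all usable blocks. The 4 places with protein-coding genes (A, E, F and G) were above the median in GC content, and B, C and D were below it.

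A core of the CTCF motif (CCAC, any base, AG, any 2 bases, GGCA) was searched on both strands. It occurred 326 times on chromosome 5, and 233 of 761 usable blocks (30.6%) held it, against 1 of the 7 places. The matches at place G and those within 1 bin of 2 TAD boundaries shared by all 4 lines within 1 Mb of place A are printed to show the searched letters near the contact ends, with the match in capitals, 5′ to 3′ on the minus strand of the GRCh37 sequence.

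Place G, chr5:180751756-180751784, outside annotated genes: ttcataggCCACCAGGAGGCAgcagttgg

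Place G, chr5:180753233-180753261, outside annotated genes: tgtacaggCCACCAGGAGGCAggaggtgg

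Place G, chr5:180796153-180796181, outside annotated genes: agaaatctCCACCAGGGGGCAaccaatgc

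Boundary at 32.08 Mb, chr5:32121260-32121288, in an intron of a long non-coding RNA gene: gtatgcttCCACCAGGAGGCAcataatgt

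Boundary at 33.4 Mb, chr5:33378708-33378736, outside annotated genes: aatttgatCCACTAGTAGGCAgaatttga

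All 5 matches lay on the minus strand, whereas 151 of the 326 matches of the chromosome lay on the plus strand and 175 on the minus strand. A match is a description of the letters and not a measured binding site.

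HCC1954 had 53 specific block pairs of 282582 (0.0188%), in 18 clusters of neighbouring block pairs. Over all chromosomes the share was 0.0359%, so chromosome 5 outside the left-out windows lay below the HCC1954 background at this minimum, and it ranked 11 of 23 chromosomes by this share. At this minimum of 10 read pairs OE33 had 56 (0.0198% against a background of 0.0166%). SNU-C1 had 9 (0.00318%, background 0.0387%) and SW480 had 5 (0.00177%, background 0.0105%). The order depended on the minimum. Without one, HCC1954 had 867 specific block pairs (0.307%), above its background of 0.237%, OE33 had 388 (0.137%, background 0.108%), SNU-C1 had 138 (0.0488%, background 0.204%) and SW480 had 45 (0.0159%, background 0.0457%). With at least 20 read pairs HCC1954 had 30, SNU-C1 had 2, SW480 had 1 and OE33 had 0. With 10 read pairs or no minimum, the calls thus lay below or above the background of HCC1954. Those of HCC1954 and OE33 differed in read pairs and in the size of clusters. In HCC1954 the read pairs per specific block pair ran from 10 to 142 with a median of 23. In OE33 they ran from 10 to 18 with a median of 11. Of its 49 clusters 43 were single block pairs, against 10 of 18 in HCC1954. The OE33 clusters between the arms also lay close in position. All except that at 39.0 Mb joined blocks starting at 18.8 to 29.6 Mb with blocks starting at 83.2 to 85.0 or 99.0 to 101.6 Mb. SNU-C1 had 1 cluster with at least 30 read pairs in a block pair, SW480 and OE33 had 0 and HCC1954 had 5. Clusters were not counted on other chromosomes, so these counts have no background either.

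**Figure D1:**
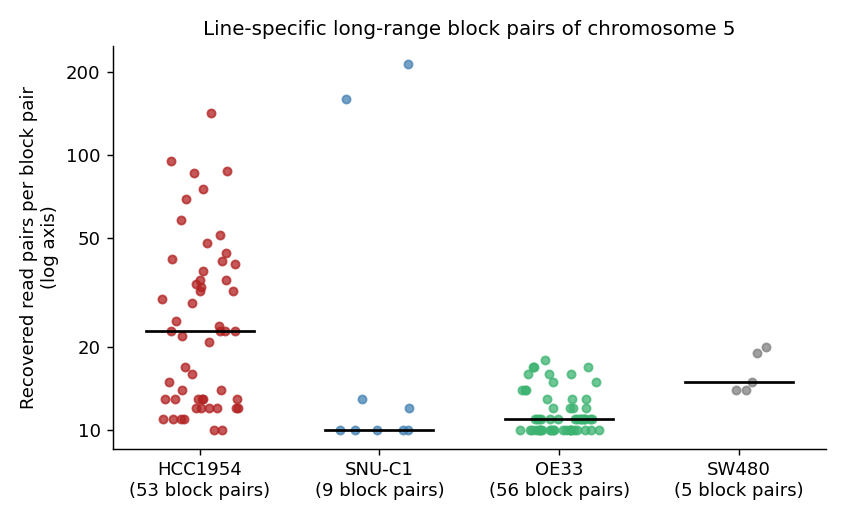
Recovered read pairs (log axis) of every line-specific block pair of chromosome 5, 1 point for each block pair, with the median of each line as a bar. The points of HCC1954 reach from 10 to 142 read pairs, those of OE33 stop at 18, and SNU-C1 has 2 points above all others.

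Among the 53 block pairs of HCC1954, 31 lay between the arms, 22 within the long arm and 0 within the short arm. The distance between the 2 blocks ran from 51.6 to 130 Mb with a median of 71 Mb, and the O/E from 4.51 to 216 with a median of 12.9. At the edge of the rule, 11 further block pairs had 9 read pairs and an O/E between 4.09 and 11.7, and 2 of the 53 had exactly 10 read pairs and an O/E of 6.81 and 8.76.

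By position the 18 clusters of HCC1954 fell into 2 sets and a remainder, a grouping that was not made for the other lines. The first, between 32.2 to 38.0 Mb of the short arm and 102.2 to 104.0 Mb of the long arm, held 8 clusters, 30 block pairs and 936 read pairs. The second, between 50.6 to 51.8 or 63.0 to 63.4 Mb and the last part of the long arm from 175.2 Mb on, held 6 clusters, 19 block pairs and 668 read pairs. The remaining 4 clusters were single block pairs with 10 to 13 read pairs each, and an O/E between 5.96 and 12.9. Of the 1650 read pairs in specific block pairs, 56.7% belonged to the first set and 40.5% to the second.

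The first set linked the 2 arms. The block pair of A and D had 95 read pairs in HCC1954 (77 to 116), 0 in SNU-C1, 1 in OE33 and 0 in SW480. The O/E there was 35.3 for HCC1954, 0.520 for OE33 and 0 for both SNU-C1 and SW480. Its cluster spanned 22 block pairs with 837 read pairs, and was the cluster with the most block pairs. At 40-kb resolution the bin pair with the most read pairs was chr5:32600001-32640000 with chr5:103440001-103480000, and the 3 by 3 bins around it had an O/E of 54.3 from 54 read pairs, with 0 read pairs in each of the other 5 maps.

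Along the short arm the contacts of 103.4 to 104.0 Mb had a sharp edge in HCC1954. From 26 to 32 Mb the O/E in 1-Mb steps was between 0.443 and 0.809, from 32 to 33 Mb it was 13.1 (482 read pairs) and from 33 to 34 Mb 11.4 (402 read pairs). It was 2.82 from 34 to 35 Mb, 3.03 from 35 to 36 Mb and 2.22 from 36 to 37 Mb. From 37 to 40 Mb it was 2.09, 1.58 and 0.921 in turn, and in the steps from 40 to 45 Mb it was between 1.48 and 2.18. From 32 to 34 Mb the other maps were between 0.130 and 0.549, a difference that the choice of these stretches by the rule already fixed. Before the edge the order was another, and OE33 had the highest O/E, up to 2.15 at 27 to 28 Mb. The position of the edge coincided with a rise of the HCC1954 coverage at 32.2 Mb, described below.

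**Figure D2:**
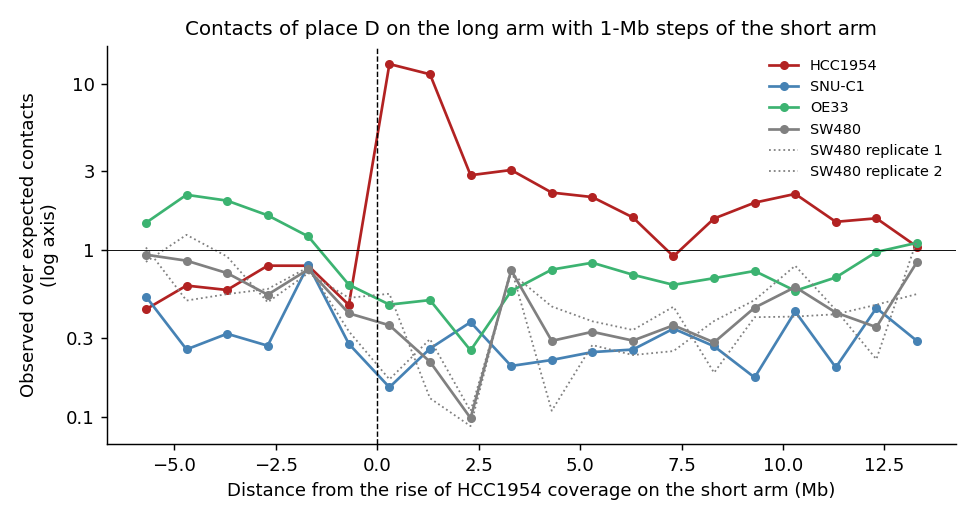
O/E (log axis) of 103.4 to 104.0 Mb on the long arm with each 1-Mb step of the short arm, against the distance of the step from the rise of HCC1954 coverage, with 1 line for each map and the SW480 replicates dotted. HCC1954 lies below 1 before the rise, at 13.1 and 11.4 just after it, and above the other maps for most of the rest of the arm.

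In the second set, place C was in the 3 leading block pairs with the most read pairs. The block pair of C and E had 142 read pairs in HCC1954 (120 to 167), 0 in SNU-C1, 0 in OE33 and 1 in SW480, and its O/E of 216 was the highest among the specific block pairs of HCC1954 on the chromosome. In the 3 by 3 bins around chr5:63200001-63240000 and chr5:175280001-175320000 the O/E was 375 from 106 read pairs (87 to 128), with 0 read pairs in the other 5 maps. The block pair of C and F had 58 read pairs in HCC1954 (44 to 75) and an O/E of 25.5, with 0 read pairs in the other 3 lines. The block pair of C and G had 42 read pairs in HCC1954 (30 to 57) and an O/E of 42.1, with 0 in SNU-C1 and OE33 and 1 in SW480. Low read pairs of the other lines in these block pairs, and in those of the other clusters, are part of the rule and no finding.

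Place B was in specific block pairs with E and G, with fewer read pairs, and not with F. The block pair of B and G had 32 read pairs in HCC1954 (22 to 45), an O/E of 24.8 and 0 read pairs in the other 3 lines. A smaller cluster linked B to E (13 read pairs, O/E 17.8), and another linked the block at 50.6 Mb, outside B, to that at 176.6 Mb, outside F (15 read pairs, O/E 8.58). Summed over the whole stretch of 50.6 to 51.8 Mb, the O/E of HCC1954 was 11.9 with E (45 read pairs, 33 to 60), 4.64 with 176.2 to 176.8 Mb (137 read pairs, 115 to 162) and 14.6 with G (96 read pairs, 78 to 117). In SNU-C1, OE33 and SW480 these 3 sums had at most 3, 19 and 4 read pairs.

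**Figure D3:**
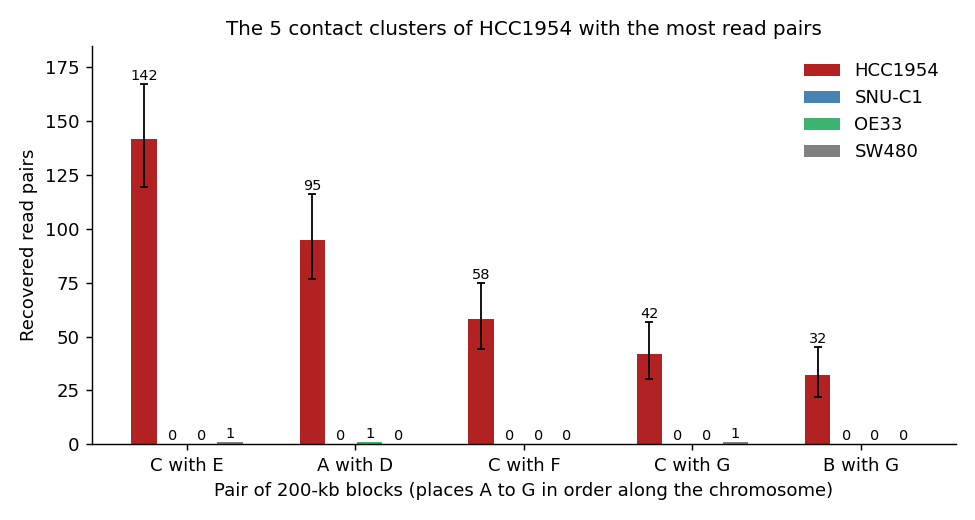
Recovered read pairs in the leading block pair of each of the 5 clusters with at least 30 read pairs, as bars for the 4 lines, with 95% Poisson intervals on HCC1954 and the number above each bar. HCC1954 has 142, 95, 58, 42 and 32 read pairs, and no other line has more than 1.

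Within each end of this set the contacts of the places with each other varied between the lines, and HCC1954 was not the highest line in any of 4 sums. The O/E of 50.6 to 51.8 Mb with 63.0 to 63.4 Mb was 2.51 in HCC1954, 3.19 in SNU-C1, 2.62 in OE33 and 3.88 in SW480. For E with 176.2 to 176.8 Mb HCC1954 was at 0.471, SNU-C1 at 0.818, OE33 at 0.592 and SW480 at 0.867. For 176.2 to 176.8 Mb with G it was 1.12 in HCC1954 against 1.12 to 1.66 in the other lines. For E with G it was 1.51 in HCC1954, 0.235 in SNU-C1, 0.386 in OE33 and 1.71 in SW480. Sums between a stretch of the first set and one of the second had an O/E from 0.210 to 1.66 in HCC1954. The highest of them, 50.6 to 51.8 Mb with 103.4 to 104.0 Mb, was at 3.40 in OE33, and the lowest, E with 103.4 to 104.0 Mb, rested on 1 read pair in HCC1954.

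As a whole the arms did not stand apart in the same way. The mean O/E between the arms was 0.661 in HCC1954, 0.50 in SNU-C1, 0.782 in OE33 and 0.598 in SW480 (0.598 and 0.595 in replicates 1 and 2), so HCC1954 lay second. When only chromosome 5 set the expected value, HCC1954 was the lowest, at 0.718 against 0.813 to 0.880, and its place in this order is therefore not settled. Within the long arm, block pairs 30 Mb or more apart had a mean O/E of 1.25 in HCC1954, 1.09 in OE33, 0.877 in SNU-C1 and 0.819 in SW480, with 0.818 and 0.816 in the SW480 replicates. Within the short arm the mean at this distance was 1.37 in HCC1954, 1.46 in SNU-C1, 1.51 in OE33 and 1.35 in SW480, so HCC1954 was not the highest. These means within arms were not recomputed with the expected value from chromosome 5 alone.

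Coverage was compared as the read pairs of a block over the autosomal median of its line, divided by the median of the same in the other 3 lines, and is called relative coverage. A value of 1 is the level of the other lines, not a normal copy number. HCC1954 had 18 coverage segments, 8 on the short arm and 10 on the long arm, against 24 in SNU-C1, 13 in OE33 and 18 in SW480. The penalty on a segment was scaled by the noise of each line, and a quieter line is split more finely. That noise, an SD of log2 values, was 0.120 in HCC1954, 0.0734 in SNU-C1, 0.101 in OE33 and 0.0853 in SW480. The numbers of segments are therefore not comparable between lines. Of 761 blocks, 58 (7.62%) were gained at 1.5 or more and 47 (6.18%) were lost at 1/1.5 or less. Over the autosomes of HCC1954 these shares were 12.7% and 12.3%, so both shares on chromosome 5 were below the background. Gained blocks numbered 41 of 196 on the short arm and 17 of 565 on the long arm. Lost blocks numbered 10 of 196 on the short arm and 37 of 565 on the long arm, so the losses were spread over the arms nearly as the blocks were. In SNU-C1, 55 short-arm blocks were gained and 0 lost, so it had more gained blocks there than HCC1954. OE33 had 0 gained and 48 lost on that arm, and SW480 had 5 and 44. The long-arm counts were 0 gained and 39 lost in SNU-C1, 25 and 0 in OE33, and 7 and 5 in SW480.

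The segment with the most gained blocks ran from 32.2 to 43.6 Mb, beside place A, with a relative coverage of 1.58 and 34 of its 55 blocks gained. Before division by the other lines its coverage was 1.71 times the autosomal median in HCC1954, 1.39 in SNU-C1, 1.06 in OE33 and 0.868 in SW480 (0.868 and 0.866 in the replicates). HCC1954 was the highest of the 4 lines there, and the replicates of SW480 differed by far less than the lines. Nearer the end of the arm, 6.0 to 7.8 Mb had a relative coverage of 0.647 (7 of 9 blocks lost). The coverage over the own median there was 0.829 in HCC1954, 0.937 in OE33, 1.298 in SW480 and 1.372 in SNU-C1. HCC1954 was thus the lowest line but near OE33, whose relative coverage was 0.737. From 25.8 to 28.8 Mb the relative coverage of HCC1954 was 1.44 (7 of 15 blocks gained). SNU-C1 was higher in this second segment, with a relative coverage of 1.69. Its coverage over the own median was 1.41 against 1.21 in HCC1954, 0.833 in OE33 and 0.772 in SW480.

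On the long arm the segments at the start (place B) and the end (places F and G) had raised relative coverage. It was 1.42 from 49.8 to 51.4 Mb, 1.47 from 176.2 to 177.6 Mb and 1.91 from 179.4 to 180.8 Mb, the highest of the 18 segments. Over the own median, coverage from 179.4 to 180.8 Mb was 1.51 in HCC1954, 0.602 in SNU-C1, 0.917 in OE33 and 0.772 in SW480. By that measure HCC1954 lay below its 1.71 from 32.2 to 43.6 Mb. From 49.8 to 51.4 Mb 4 of 8 blocks were gained, and single blocks ran from 1.01 to 2.27. The coverage over the own median there was 1.11 in HCC1954, 0.930 in OE33, 0.788 in SW480 and 0.581 in SNU-C1. The segment from 176.2 to 177.6 Mb had 5 blocks, the fewest allowed. Of these 3 were gained, and single blocks ran from 0.834 to 2.27. The relative coverage of OE33 in this segment was 1.51, but relative coverage divides each line by a different set of lines. The coverage over the own median was 1.53 in HCC1954, 1.16 in OE33, 0.895 in SW480 and 0.604 in SNU-C1. Between the 2 raised segments at the end of the arm lay 177.6 to 179.4 Mb at 0.648, with 6 of 8 blocks lost. The step of relative coverage at 179.4 Mb was thus 2.94-fold. From 177.6 to 179.4 Mb the coverage over the own median was 0.488 in HCC1954, 0.599 in SNU-C1, 0.730 in SW480 and 0.995 in OE33. Of the 18 segments, that from 160.4 to 167.6 Mb had the most lost blocks, 18 of 36, at 0.662. One segment, from 101.8 to 128.4 Mb with 1.13, spans the left-out window.

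**Figure D4:**
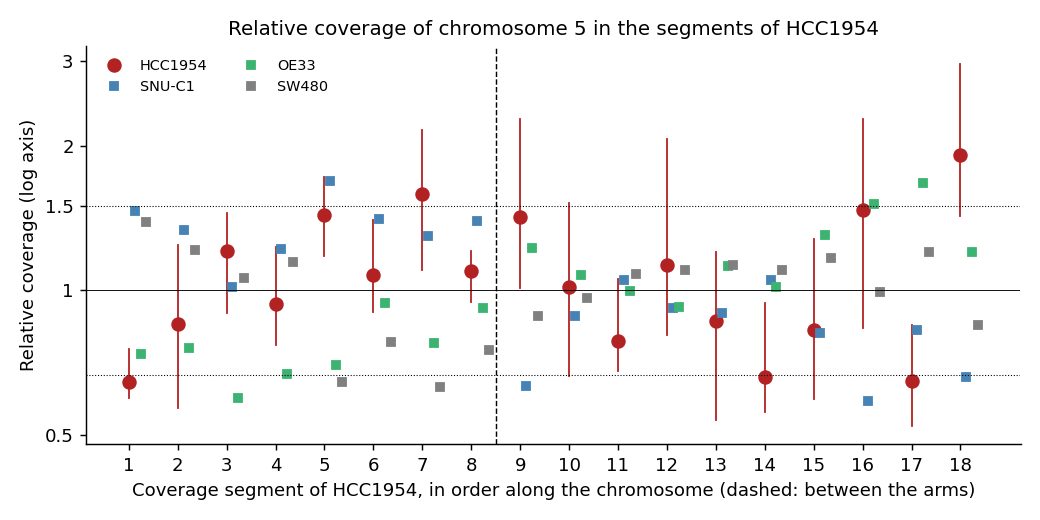
Relative coverage (log axis) of the 18 HCC1954 segments in order along the chromosome, for HCC1954 (circles, with a bar from the lowest to the highest block) and the other lines (squares), with dotted lines at 1.5 and 1/1.5. Segment 7 on the short arm is at 1.58, and segments 16 to 18 at the end of the long arm are at 1.47, 0.648 and 1.91.

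The places themselves had unequal coverage. Relative coverage in HCC1954 was 2.95 at G, 2.27 at both B and F, 1.34 at D, 1.3 at A, 1.05 at C and 0.895 at E. At G the coverage over the own median was 2.26 in HCC1954, 0.444 in SNU-C1, 0.811 in OE33 and 0.733 in SW480 (0.716 and 0.748 in the replicates), from 3 of 5 usable bins. At F it was 2.45 in HCC1954, 0.723 in SNU-C1, 1.24 in OE33 and 1.07 in SW480 (1.08 and 1.06). At C, which was in 3 of the 5 leading block pairs, it was 0.757 in HCC1954 and between 0.590 and 0.860 in the other lines, so the groups overlapped. Of the 7 places, 3 lay within 400 kb of a coverage step (A, B and F), against 93 of all 761 usable blocks, and of the ends of all clusters 6 of 26 did.

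Of 53 listed genes on the chromosome, 13 lay in gained blocks, against 58 of all 761 blocks (7.62%). Among 14 growth, cytokine receptor and cell cycle genes of the short arm, 8 were gained and 0 lost, with a median relative coverage of 1.60 against 0.969 over all 761 blocks. All 8 lay in the segment from 32.2 to 43.6 Mb, in which 34 of 55 blocks were gained, so their values describe that segment and are not particular to these genes. *RICTOR*, a core subunit of the kinase complex mTORC2, had the highest value of the list, with a relative coverage of 2.07 in HCC1954, 1.38 in SNU-C1, 0.724 in OE33 and 0.684 in SW480. *PRLR*, the prolactin receptor of mammary epithelium, was at 1.88 in HCC1954, 1.56 in SNU-C1, 0.642 in OE33 and 0.484 in SW480. *IL7R*, a cytokine receptor of lymphocytes, was at 1.82 and *SKP2*, which targets the cell cycle inhibitor p27 for degradation, at 1.79. *OSMR* and *LIFR*, receptors of the interleukin-6 family of cytokines, were at 1.82 and 1.52. *NIPBL*, which loads cohesin on chromatin, was at 1.77 and *DAB2*, an endocytic adaptor, at 1.67. *DROSHA*, which cuts primary microRNAs, lay 0.968 Mb from the middle of place A, before the rise, at 1.40, and *GDNF*, a neurotrophic factor, lay in an end block of a small cluster at 1.20. *TRIO*, *GHR*, *FGF10* and *OXCT1* were between 1.02 and 1.40.

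Among the other lists fewer genes were gained. Of 6 cadherin and catenin genes of the short arm, *CDH9* was gained at 1.57, below SNU-C1 at 1.74 and above OE33 at 0.637 and SW480 at 0.607, and 5 were in neither group, with *CDH6* at 0.956. Of 9 DNA repair and cell cycle genes of the long arm, 0 were gained and 0 lost, with values from 0.800 to 1.22; *MSH3*, of mismatch repair, lay within 1 Mb of a cluster end at 0.998. Of 10 signalling and tumour suppressor genes, *NSD1* in place F was gained at 2.27 and 9 were in neither group. *SMAD5*, a mediator of BMP signals, was at 0.883 within 1 Mb of a cluster end. Of 9 transcription factor genes, *ISL1*, which specifies motor neurons and pancreatic islet cells, was gained at 1.65, 0.421 Mb from the middle of place B, and *PITX1*, a hindlimb factor, was at 0.837 within 1 Mb of a cluster end. The cluster ends nearest to *MSH3*, *SMAD5* and *PITX1* belong to clusters of 1 block pair with 10 read pairs, the minimum, outside places A to G. Of 5 receptor kinase genes, *FGFR4* was gained at 2.27 and *FLT4*, the receptor of lymphatic vessel growth, at 1.55. *FGFR4* and *NSD1* share 1 block and are 1 measurement, and at this block SNU-C1 was at 0.589, OE33 at 1.16 and SW480 at 0.876. The listed genes were not measured as RNA, so coverage says nothing of their expression.

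Compartments were computed for each arm as the leading axis of the O/E pattern, signed so that gene-rich blocks are positive and scaled to an SD of 1. On the short arm 33.7% of 196 blocks were in A in HCC1954, 26.5% in SNU-C1, 34.7% in OE33 and 28.6% in SW480. On the long arm 55.9% of 565 blocks were in A in HCC1954, 45.5% in SNU-C1, 49.2% in OE33 and 54.7% in SW480. The correlation across blocks of HCC1954 with the other lines was between 0.696 and 0.814 on the short arm and between 0.779 and 0.860 on the long arm, against 0.987 and 0.994 between the SW480 replicates. Blocks are not independent replicates, and all maps share the base composition of each block.

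A block was counted as switched where HCC1954 had the opposite sign to all 3 other lines by at least 0.5 SD. On the short arm 11 blocks switched to A (5.61%) and 1 to B, and on the long arm 8 switched to A (1.42%) and 4 to B (0.708%). By the same rule the short arm had 3 to A and 3 to B in SNU-C1, 4 and 0 in OE33, and 5 and 3 in SW480. The long arm had 4 to A and 21 to B in SNU-C1, 1 and 10 in OE33, and 14 and 2 in SW480. Over all arms used the HCC1954 shares were 2.82% to A and 1.13% to B, and over both arms of chromosome 5 they were 2.5% and 0.657%, both below that background. On the short arm the share to A was above it, and the switched blocks lay at 18.8 to 21.2 Mb (6 blocks) and inside the gained segment from 32.2 to 43.6 Mb (5 blocks). Their relative coverage was between 1.18 and 1.42 in the former and between 1.59 and 2.15 in the latter, and the part of coverage in these switches was not tested. The 6 blocks at 18.8 to 21.2 Mb had scores between 0.002 and 0.568 in HCC1954, so the lowest were barely positive. The other lines were between -1.51 and -0.745 there. At 32.8 to 33.2 Mb, within the contact cluster of A and D, the score was between 0.539 and 0.637 in HCC1954 and between -1.40 and -0.076 in the other lines.

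At the end of the long arm 3 neighbouring blocks from 180.0 to 180.6 Mb, next to place G, switched to B. Their score was between -0.240 and -0.060 in HCC1954 and between 0.569 and 1.11 in the other lines, and their relative coverage in HCC1954 was between 1.55 and 2.38. At the block with *FLT4* the score was -0.240 in HCC1954, 0.569 in SNU-C1, 0.913 in OE33 and 0.751 in SW480 (0.684 and 0.715 in the replicates). Elsewhere on the long arm 3 blocks from 158.0 to 158.6 Mb, the last with the start of *EBF1* (a factor of B cell development), switched to A. At the *EBF1* block the score was 0.390 in HCC1954, -1.21 in SNU-C1, -0.250 in OE33 and -0.202 in SW480, and the relative coverage was 1.02. The places A, B, C, D, E, F and G had the same sign in all 4 lines, with A, E, F and G in compartment A and B, C and D in compartment B.

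TAD boundaries were called as minima of the insulation score, the log2 of the mean contact across a bin within 1 Mb over its chromosome mean. HCC1954 had 147 boundaries, SNU-C1 157, OE33 136 and SW480 143, and 83 were shared by all 4 lines within 2 bins. Of the HCC1954 boundaries 11 (7.48%) lay in no other line, against 7.81% over its autosomes, and 9 of 95 boundaries (9.47%) of the other 3 lines were missing in HCC1954, against 8.8%. Between the SW480 replicates 7 of 144 boundaries (4.86%) were not matched. The share of boundaries in HCC1954 alone on chromosome 5 was thus near the background of the line. The 11 were also weaker, with a median strength of 0.341 against 0.823 for the shared boundaries, and 2 of the 11 lay within 4 bins of a missing one, at 3 and 4 bins.

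Of the 11 boundaries, 2 lay within 1 Mb of a place, as did 4 of the 83 shared boundaries. At chr5:176080001-176120000, before place F, the insulation score was -0.802 in HCC1954, -0.099 in SNU-C1, -0.334 in OE33 and -0.076 in SW480 (-0.074 and -0.080 in the replicates), so HCC1954 lay lower by more than the other lines differed from each other. This boundary was weak (strength 0.182) and lay beside the coverage step at 176.2 Mb. At chr5:32480001-32520000, inside place A, the score was -0.422 in HCC1954, -0.320 in SNU-C1, -0.635 in OE33 and -0.230 in SW480, within the range of the other lines. *CDH6*, a cadherin of the kidney, starts 2 bins from the boundary at 31.24 Mb, where the score was -1.08 in HCC1954 and between -0.932 and -0.828 in the other lines. This boundary, the strongest of the 11 (1.10), lay 4 bins from that at 31.4 Mb, which was missing in HCC1954. At 31.4 Mb the score was -0.811 in HCC1954 and between -1.16 and -0.950 in the other lines. Whether these are 1 shifted boundary was not tested. None of the 9 missing boundaries lay within 1 Mb of a place.

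**Figure D5:**
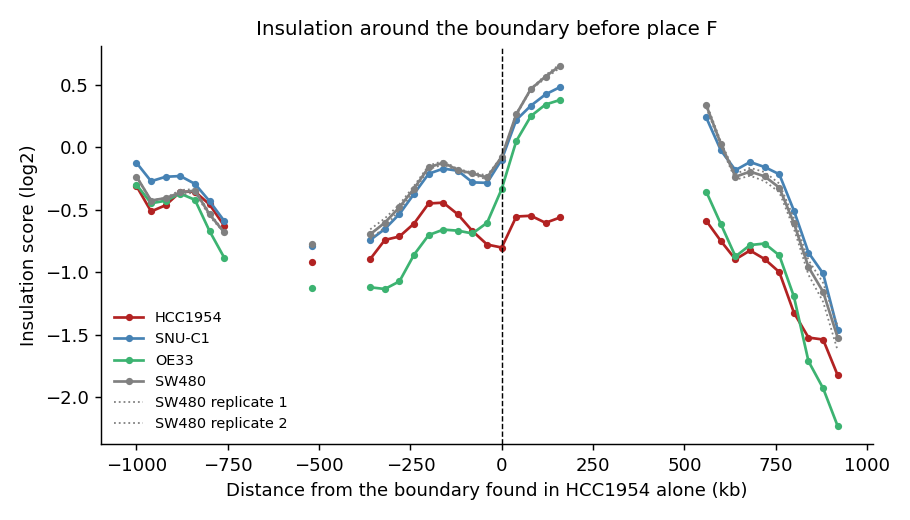
Insulation score (log2) of the 4 lines, with the SW480 replicates dotted, against the distance from the boundary at 176.08 Mb that was found in HCC1954 alone, with gaps where a bin had no score. At the boundary HCC1954 is at -0.802 and the other lines are between -0.334 and -0.076.

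Across all bins the insulation scores of HCC1954 correlated with those of the other lines between 0.845 and 0.896 on the short arm and between 0.870 and 0.907 on the long arm, and the SW480 replicates with each other at 0.996 and 0.997. The mean absolute difference in score from the other lines was between 0.164 and 0.184 on the short arm and between 0.146 and 0.168 on the long arm, against 0.024 and 0.023 between the replicates. The CTCF core motif lay within 1 bin of 38.6% of the 83 shared boundaries, of 1 of the 11 boundaries in HCC1954 alone and of 19.5% of all 3654 bins with a score.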

How the data were processed

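In situ Hi-C maps of 4 cancer cell lines were used, with 2 replicates and their pool for SW480. Per the study's methods and the submitters' processing notes, BWA-MEM was used for alignment to hg19, Picard for removal of PCR duplicates, and iterative correction for the matrices. Their versions are not stated here. What the authors deposited is a signal, namely a corrected contact frequency for each pair of 40-kb bins. HCC1954, SNU-C1 and OE33 were corrected over the genome and SW480 within chromosomes. A deposited table gives the number of each bin, which is another kind of value and was used for positions only. The bins end where the GRCh37 sequence of chromosome 5 ends.

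Bin factors were fitted in 45 iterations and turned the values into read pairs, which for those up to 20.5 fell within 0.02 of whole numbers in 100% of pairs tested in each map. Read pairs within chromosomes were 93501178 in HCC1954, 115014338 in SNU-C1, 89418425 in OE33, 133403555 in SW480, 65991388 in its replicate 1 and 67373813 in its replicate 2. Far block pairs rest on few read pairs and have wide intervals. Bins with less than 0.25 of a line's median coverage were dropped, and blocks needed 3 of 5 usable bins. The expected value was the mean over all chromosomes at each distance, smoothed beyond 5 Mb over 10% of the distance. Clusters joined specific block pairs within 2 blocks. Segments were fitted by least squares to log2 relative coverage (penalty 10, scaled by the noise of the line, at least 5 blocks), arms separately. Compartment scores clipped O/E at 4, and 34 of 39 arms with at least 50 blocks, in which the score correlated with gene number at 0.2 or more in all lines, gave the background. Boundaries used a 1-Mb window, a 200-kb delta and a strength of at least 0.1.

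The members and gene lists were chosen with earlier results of these data known. Genes named are list members in gained, lost or switched blocks, within 1 Mb of a cluster end or 2 bins of a boundary of HCC1954 alone, and the genes in places A to G. One gene that met this rule is not reported here. *TRIO*, *GHR*, *FGF10* and *OXCT1* were named outside this rule after their values were seen. No paired or replicated test was possible with 1 map of HCC1954. The calculations were also run on simulated maps with planted contacts, compartments, domains and coverage steps. The outcome is not given here, so that run lends no weight to the values above. Gene positions were from GENCODE 44 lifted to GRCh37. The work ran in Python 3.11.15 with numba 0.67.0, Matplotlib 3.10.9, pandas 2.3.3, SciPy 1.17.1, PyArrow 21.0.0 and NumPy 2.4.6.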

Additional observations from a re-analysis of the deposited data

How the results depend on the processing

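Of 53 recomputed values over 7 results, 34 stayed within 1.5 times the count or within the error of the value, and 19 moved. For the share of blocks gained or lost that error was a binomial interval over blocks (11.4% to 16.5%), although blocks are not independent. For the contacts between the arms it was the SD of the SW480 replicates (0.00208), as HCC1954 has a single map. Neither measures the replicate error of HCC1954. The number of specific block pairs of HCC1954 (53) and of clusters (18) was 19 and 8 with blocks of 400 kb, 92 and 31 without iterative correction, 357 and 252 at an O/E and ratio of at least 2, 30 and 5 with at least 20 read pairs, and 867 and 687 with no minimum of read pairs. The 5 clusters with at least 20 read pairs were those described as places A to G, and all 53 block pairs were found again without iterative correction. The coverage segments (18) were 28 with the penalty halved and 6 with blocks of 400 kb, where a segment needs 2 Mb. The share of blocks gained or lost (13.8%) was 22.5% with the coverage of HCC1954 alone and 31.1% at a threshold of 1.3. Compartment switches (24) were 15 with blocks of 400 kb and 11 at a change of at least 1 SD. Boundaries in HCC1954 alone (11) were 17 without iterative correction. With a strength of at least 0.2 they numbered 11 again but were not the same ones, as that at 176.08 Mb (strength 0.182) fell out. The O/E between the arms (0.661) was 0.718 with the expected value from chromosome 5 alone and 0.683 without iterative correction.

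Leaving out either SW480 replicate gave 51 to 54 block pairs, 16 to 19 clusters, 18 segments, 13.4% to 13.7% of blocks gained or lost, 23 to 25 switches, 11 boundaries and 0.661 between the arms. The value between the arms comes from the HCC1954 map alone, so a replicate of SW480 could change it only through the usable bins. A minimum distance of 5 Mb could not change the 53 block pairs, the closest of which were 51.6 Mb apart. No paired analysis was possible because only SW480 has numbered replicates. Depth limits the block pairs with under 20 read pairs, 23 of 53, and the 4 single block pairs outside the 2 sets.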
